A study of Homo sapiens with 24 samples.

Results

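Most SLC25 genes encode carriers of the inner mitochondrial membrane. The promoters and gene bodies of 48 SLC25 genes were examined here for peaks of Flag-tagged S100A8 and S100A9. The members are all protein-coding genes in the GENCODE annotation of hg19 (chromosomes 1 to 22 and X) whose symbol is SLC25A followed by a number, 48 of 20098 genes. The family was chosen from measured values: one member, SLC25A51, had a promoter peak in all 11 peak lists, so that fact is given as a description only. The 11 lists come from chromatin immunoprecipitation sequencing (ChIP-seq) with an antibody to Flag in MCF-10A–ER-Src cells, a nontransformed human breast epithelial line that carries v-Src fused to the ligand-binding domain of the estrogen receptor. A retroviral vector made stable lines that express S100A8 or S100A9 with a C-terminal Flag tag, and each line was treated for 24 hours with ethanol (EtOH) or with 1 μM 4-hydroxytamoxifen (TAM), which activates v-Src and transforms the cells. Lists were given for 2 S100A8 EtOH, 3 S100A9 EtOH, 3 S100A8 TAM and 3 S100A9 TAM libraries, named below by protein, treatment and replicate number. The tagged protein is therefore made from a transgene in every library, EtOH libraries included, and a library without the transgene was not analysed here.

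SLC25 carriers are small proteins with a common fold of repeated transmembrane helices. They exchange ATP for ADP, bring in phosphate, and move carboxylates, amino acids, carnitine esters, nucleotides, cofactors such as NAD and FAD, iron and glutathione between cytosol and matrix. They are made from nuclear genes and are used by all cells with mitochondria, although several members are restricted to testis, liver, muscle or brain.

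A promoter was called in a library when the list held a peak with −log10 q of at least 7 (q is the multiple-testing-adjusted p-value that the peak caller gave) whose summit, its highest point, lay between 1500 bp before and 250 bp after a transcription start site (TSS). A gene body call is such a summit inside the gene but outside its promoter windows. The 5 EtOH lists held 1853 to 4609 peaks at this threshold and the 6 TAM lists 21518 to 40735, so every gene had more peaks to be called with in TAM. Read depth is unknown, as the files hold no read counts. The pseudoautosomal end of chromosome X, where SLC25A6 lies, held 0 peaks in all 11 lists, so SLC25A6 could not be assessed. Summits in S100A9 coding exons, which the transgene shares with the genome, were called in 6 of 6 S100A9 libraries and 1 of 5 S100A8 libraries, whereas S100A8 coding exons held a summit in 0 of 5 and 0 of 6, so the label of the S100A8 lines has no such check. Of the basal epithelial markers, KRT5, KRT14, KRT17, ITGA6 and LAMB3 had a promoter call in at least 1 library and TP63 had none. Calls were also present for the luminal markers KRT8, KRT18, GATA3 and FOXA1 (ESR1 had none) and the fibroblast markers COL1A1 and PDGFRA (COL1A2 had none), whereas PTPRC and CD3E (leukocytes) and CDH5 (endothelium) had 0 calls. Promoter calls thus did not separate the labelled cell type from luminal epithelial cells or fibroblasts.

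The sequence around the summits is shown for members on which the results turn, to let the sites be compared. They were read from the hg19 assembly on the strand of the gene, 5′ to 3′, in a window of up to 50 bases to either side of the median summit of the site called in most libraries, without exons of protein-coding transcripts. SLC25A51 (chr9:37904330-37904430, called in all 11 libraries), SLC25A28 (chr10:101381083-101381183), SLC25A16 (chr10:70287281-70287358), SLC25A20 (chr3:48936338-48936430) and SLC25A36 (chr3:140660488-140660588), each called in 6 of 6 TAM and 0 of 5 EtOH libraries, SLC25A45 (chr11:65149886-65149956, called in both S100A8 EtOH libraries) and the strongest gene body site, in an intron of SLC25A48 (chr5:134986981-134987081), read as follows, with capitals for letters that match one of the consensus motifs named further on.
SLC25A51: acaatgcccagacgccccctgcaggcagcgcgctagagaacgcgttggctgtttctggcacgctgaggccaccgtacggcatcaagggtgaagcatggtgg
SLC25A28: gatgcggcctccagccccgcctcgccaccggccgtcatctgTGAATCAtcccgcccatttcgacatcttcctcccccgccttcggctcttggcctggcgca
SLC25A16: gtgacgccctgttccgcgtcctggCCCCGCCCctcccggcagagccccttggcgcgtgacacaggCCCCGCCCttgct
SLC25A20: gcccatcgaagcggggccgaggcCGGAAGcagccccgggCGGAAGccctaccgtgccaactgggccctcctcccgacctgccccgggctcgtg
SLC25A36: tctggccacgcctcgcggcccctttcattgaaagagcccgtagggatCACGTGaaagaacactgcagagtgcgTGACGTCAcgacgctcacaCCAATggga
SLC25A45: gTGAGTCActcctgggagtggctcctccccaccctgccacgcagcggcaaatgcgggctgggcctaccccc
SLC25A48: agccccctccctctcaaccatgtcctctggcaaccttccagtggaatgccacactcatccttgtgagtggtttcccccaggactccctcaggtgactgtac

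These windows shared no single motif. SLC25A28 and SLC25A45 each held an AP-1 consensus (TGANTCA, where N is any base). SLC25A16 held the KLF/SP1 consensus CCCCGCCC at 2 positions and SLC25A20 the ETS consensus CGGAAG at 2 positions. SLC25A36 held an E-box (CACGTG), a CREB consensus (TGACGTCA) and a CCAAT box (ATTGG on the other strand). SLC25A51 and the SLC25A48 intron matched none of the 8 consensus sequences searched.

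SLC25A51, the mitochondrial NAD carrier, had the steadiest site of the family. In EtOH its promoter peak had a fold enrichment over input of 9.65 and 10.5 in the S100A8 libraries and of 10.04, 8.97 and 13.4 in the S100A9 libraries. In TAM the fold enrichment was 16, 11.3 and 13.3 for S100A8 and 20.7, 27.9 and 15.9 for S100A9. The EtOH and TAM values overlap, since the highest EtOH value exceeds the 2 lowest TAM values. In −log10 q the EtOH peaks spanned 9.22 to 20.2 and the TAM peaks 22.6 to 57.6, without overlap. The site, chr9:37903835-37904744, covers the 5′ end of the gene record, and its summits lay at -296 to -214 bp from the nearest TSS in all 11 libraries (negative positions are upstream). Of all protein-coding genes, 0.488% (98 genes) were called in all 11 libraries. SLC25A52, the intronless near-copy of SLC25A51 on chromosome 18, had 0 deposited peaks in its promoter window in any list. Between such near-identical genes uniquely mapped reads can be lost, and whether this bears on SLC25A52 was not tested.

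**Figure D1:**
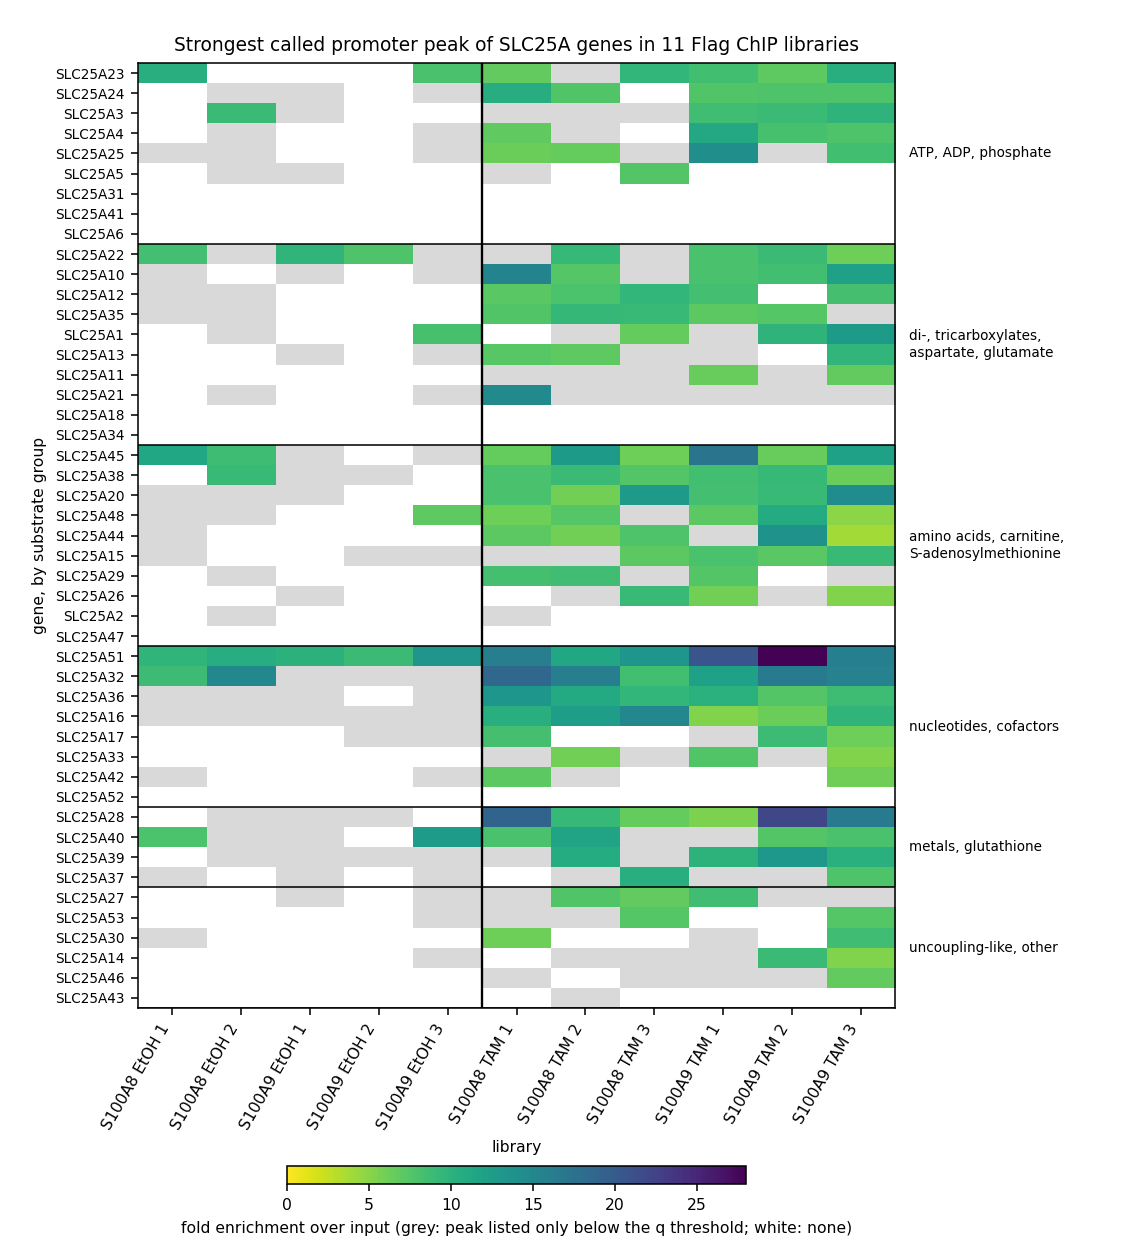
Fold enrichment over input (colour) of the strongest called promoter peak of the SLC25A genes (rows, grouped by substrate) in the 11 libraries (columns, EtOH left of the line and TAM right of it). Grey marks a peak listed only below the q threshold and white no listed peak; SLC25A51 is coloured in every column, most other rows are coloured to the right of the line, and 7 rows are white throughout.

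Across the family, 39 of 48 promoters (81.2%) were called in at least 1 library, against 61.1% of all genes. The share was 91.9% for respiratory chain and ATP synthase subunit genes and 100% for mitochondrial ribosomal protein genes. In EtOH 10 members (20.8%) were called in at least 1 library, against 29% of all genes: SLC25A51, SLC25A22, SLC25A23, SLC25A32, SLC25A40, SLC25A45, SLC25A1, SLC25A3, SLC25A38 and SLC25A48. The other 29 called members (60.4% of the 48) were called in TAM libraries only, against 32.1% of all genes. In EtOH libraries only, 0 members were called, against 0.428% of all genes. All 6 TAM libraries called 8 members (16.7%), against 13.9% of all genes. The 9 members called in no library were SLC25A2, SLC25A6, SLC25A18, SLC25A31, SLC25A34, SLC25A41, SLC25A43, SLC25A47 and SLC25A52, of which only SLC25A2 and SLC25A43 had a deposited promoter peak below the threshold. SLC25A31 is the ADP/ATP carrier of testis and SLC25A47 is a liver carrier.

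Per library, 6 and 5 member promoters were called in S100A8 EtOH, 2, 2 and 5 in S100A9 EtOH, 24, 23 and 20 in S100A8 TAM, and 26, 24 and 34 in S100A9 TAM. EtOH libraries averaged 4.0 ± 1.87 members (SD, n = 5). TAM libraries averaged 25.2 ± 4.75 members (SD, n = 6), and the counts of the treatments do not overlap. As a share, this is 8.34% ± 3.90 of members beside 10.1% ± 2.48 of all genes in EtOH, and 52.4% ± 9.90 beside 39% ± 5.42 in TAM. In each TAM library the members' share lay above that of all genes, and it lay below the share of the respiratory chain and ATP synthase subunit genes (mean 61.1% ± 10.3 of 86 genes) and of the mitochondrial ribosomal protein genes (mean 73.7% ± 8.50 of 78 genes). No test was made on these shares, as the family was chosen with results known. When only the 1853 strongest peaks of each list were kept, which takes away the difference in length, 2 to 4 members were called per EtOH library and 3 to 5 per TAM library. The mean shares were then 5.83% of members beside 5.57% of all genes in EtOH, and 7.99% beside 4.61% in TAM.

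**Figure D2:**
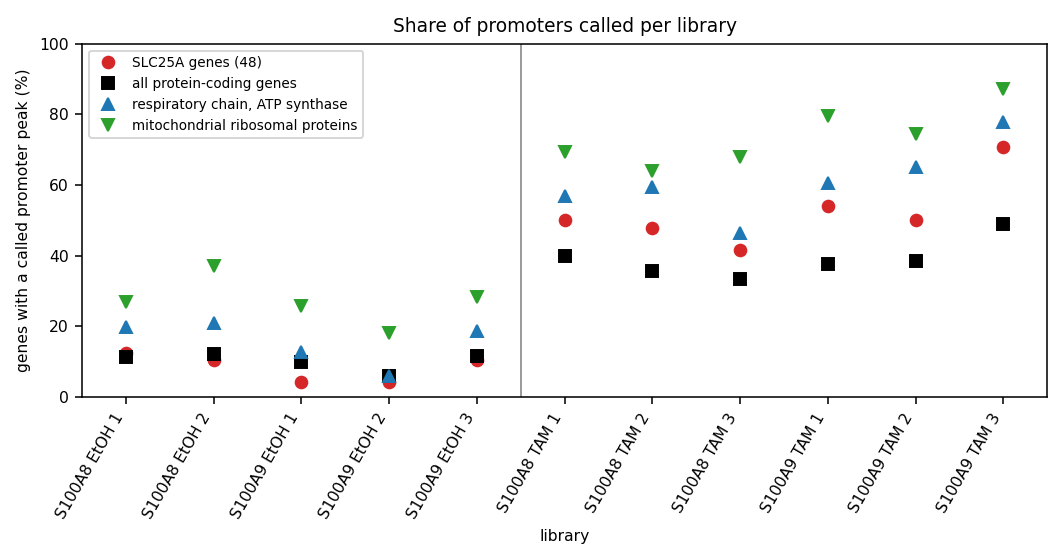
Percentage of genes with a called promoter peak in each of the 11 libraries, for the SLC25A genes (circles), all protein-coding genes (squares), respiratory chain and ATP synthase genes (upward triangles) and mitochondrial ribosomal protein genes (downward triangles). SLC25A shares were 4.17 to 12.5% in EtOH and 41.7 to 70.8% in TAM, above the squares in each TAM library.

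Whether TAM changed the calls of single promoters was tested by an exact permutation test over the libraries for each of 10794 genes called in at least 2 libraries, 36 of them members, with treatment labels exchanged within each protein. No gene passed a Benjamini-Hochberg adjusted permutation p of 0.05 (0 of 10794, 0%, smallest adjusted p = 0.19), as the smallest two-sided p that the 200 arrangements allow, 0.01, was shared by 569 genes. At an unadjusted permutation p under 0.05, 21% of the genes tested were called more often in TAM (2265 genes), and 11 of 36 members (30.6%) were, among them SLC25A10, SLC25A12, SLC25A16, SLC25A20, SLC25A24, SLC25A28, SLC25A35, SLC25A36, SLC25A38 and SLC25A44. At that level 0 of the 10794 genes tested, and so 0 members, were called less often in TAM. Genes called only in TAM libraries passed the filter of at least 2 libraries through TAM calls alone, so the filter fixed their direction. The median difference in the share of libraries called, TAM minus EtOH, was 0.50 for the 36 members and 0.50 for all genes tested. The 11 members became 4 to 6 when any 1 library was left out and 0 with equal numbers of peaks per list. The share of all genes tested fell as well, from 21% to between 5.9 and 7.8% without 1 library and to 1.07% with equal numbers. The study's methods call the replicates biological, but no source used here says whether they were separate cultures or lines, so these p-values measure only the spread between these libraries.

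The result depended on the measure. When the highest −log10 q of any deposited promoter peak replaced the call, with 0 where none was listed, 40.5% of genes (4373) passed an adjusted permutation p of 0.05 with higher values in TAM, and 15 of 36 members (41.7%) did, SLC25A51 among them. A −log10 q grows with the depth of a library, and depth was not known. When the rank of the best promoter peak within its own list was used instead, 0 genes passed after adjustment (smallest adjusted permutation p = 1.0). The rank was put on a log2 scale and cut at the length of the shortest deposited list. Peaks ranked beyond that length counted the same as no listed peak. By rank, 0.945% of genes (102) stood higher in TAM at an unadjusted permutation p under 0.05 and 0 members did, and 1.73% (187) stood lower in TAM, with 1 member, SLC25A22. The ranking was chosen after the lengths of the lists were seen.

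The 4 members called in 6 of 6 TAM and 0 of 5 EtOH libraries (8.33% of members, against 2.83% of all genes) were SLC25A16, SLC25A20, SLC25A28 and SLC25A36, each with an unadjusted exact permutation p = 0.01 and an adjusted p = 0.19. Of the respiratory chain and ATP synthase subunit genes 6.98% had the same pattern, and of the mitochondrial ribosomal protein genes 2.56%. SLC25A28 encodes mitoferrin-2, an iron importer. Its site lies in an intron, outside the promoter window of the 5′ end of the gene record, so with only that end as TSS it was not tested. Its peaks in TAM had a fold enrichment of 19, 9.19 and 6.59 for S100A8 and 5.49, 22.1 and 16.5 for S100A9. Their −log10 q was 7.75 to 40.3, and in EtOH peaks of −log10 q 3.41, 4.77 and 6.09 were listed in 3 of 5 libraries. In fold enrichment the treatments overlapped. The peaks of S100A9 EtOH 1 (5.80) and S100A9 EtOH 2 (7.35) exceeded that of S100A9 TAM 1, and 7.35 also exceeded that of S100A8 TAM 3.

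SLC25A16, a carrier linked to coenzyme A, had in TAM a fold enrichment of 10.5, 12.4 and 15 for S100A8 and 5.28, 6.25 and 9.68 for S100A9. All 5 EtOH libraries listed a weaker peak there, with −log10 q between 2.0 and 4.99. The site was thus listed below the threshold in each EtOH list. On the fold enrichment scale the treatments overlapped, since the weaker EtOH peaks reached 5.96 in S100A9 EtOH 1 and 5.90 in S100A9 EtOH 3, above S100A9 TAM 1. SLC25A20, the carnitine-acylcarnitine carrier that brings fatty acids to oxidation, had a fold enrichment of 7.99, 5.95 and 12.9 for S100A8 and 8.41, 9.02 and 14.4 for S100A9 in TAM. In EtOH 3 of 5 libraries listed a peak of −log10 q 1.5, 6.34 or 2.6. The SLC25A20 treatments also overlapped in fold enrichment, as the peak of S100A8 EtOH 2 (6.91) exceeded that of S100A8 TAM 2. SLC25A36, a pyrimidine nucleotide carrier, had 13.3, 10.8 and 9.50 for S100A8 and 10.2, 7.52 and 8.68 for S100A9 in TAM, and 4 of 5 EtOH libraries listed a peak of −log10 q 2.05 to 6.46. The fold enrichment of these SLC25A36 EtOH peaks was at most 7.05, below each TAM value.

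The substrate groups are small, and their counts stand beside 61.1% of all genes called in at least 1 library and a median of 2 TAM libraries per gene (3 over the family). Among nucleotide and cofactor carriers, 8 of 9 were called in at least 1 library, with a median of 5.0 TAM libraries per member. SLC25A32, the FAD and folate carrier, was called in both S100A8 EtOH libraries, at a fold enrichment of 8.8 and 15, and in 0 of 3 S100A9 EtOH libraries, where peaks of −log10 q 6.25, 4.53 and 4.13 were listed. In TAM it had 18.6, 16 and 8.48 for S100A8 and 12, 16.3 and 15.6 for S100A9. Its site also lies in the promoter window of the neighbouring gene DCAF13, so the peak cannot be given to 1 of the genes. The same holds for sites of SLC25A11 (RNF167), SLC25A25 (NAIF1), SLC25A27 (CYP39A1) and SLC25A46 (TMEM232), and for the sites of SLC25A22 other than its main one (PANO1). SLC25A17, SLC25A33 and SLC25A42 were called in 2 or 3 TAM libraries each.

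**Figure D3:**
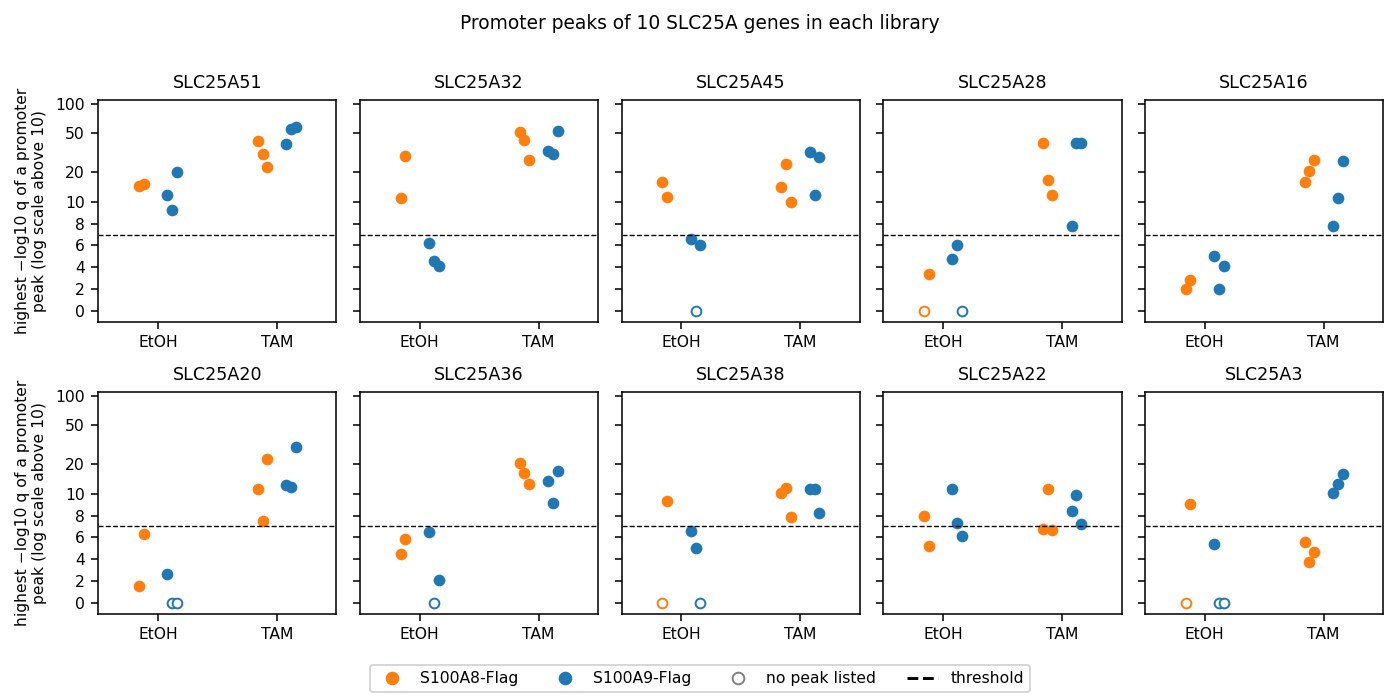
Highest −log10 q of a deposited promoter peak of 10 SLC25A genes in each library, by treatment and coloured by tagged protein; the axis is linear up to 10 and logarithmic above, open circles mark no listed peak, and the dashed line is the threshold of 7. SLC25A51 lies above the line in all 11 libraries, whereas SLC25A16, SLC25A20, SLC25A28 and SLC25A36 have EtOH values below it and TAM values above it.

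Of the amino acid, carnitine and S-adenosylmethionine carriers, 8 of 10 were called, with a median of 4.5 TAM libraries. SLC25A45 was called in both S100A8 EtOH libraries, at a fold enrichment of 11.3 and 8.74, and in 0 of 3 S100A9 EtOH libraries. In TAM it had 6.59, 12.7 and 6.18 for S100A8 and 17.3, 6.54 and 12 for S100A9, a range that covers the EtOH values. SLC25A38, which brings glycine in for heme synthesis, was called in 6 of 6 TAM libraries at 6.24 to 9.22 and in 1 of 5 EtOH libraries at 9.08 (unadjusted permutation p = 0.04, adjusted p = 0.191). These calls pooled 2 sites, one called in 3 TAM libraries and 1 EtOH library and the other in 4 TAM libraries, and with only the 5′ end of the gene as TSS the difference in share, TAM minus EtOH, turned from 0.75 to -0.0833. SLC25A44, the branched-chain amino acid carrier, was called in 5 of 6 TAM and 0 of 5 EtOH libraries. SLC25A15, the ornithine carrier of the urea cycle, was called in 4 TAM libraries, SLC25A29 and SLC25A26, the S-adenosylmethionine carrier, in 3 each.

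Of the di- and tricarboxylate and aspartate/glutamate carriers, 8 of 10 were called, with a median of 3.0 TAM libraries. SLC25A22, a glutamate carrier, was the only member besides SLC25A51 called in at least 3 of 5 EtOH libraries. Its fold enrichment was 8.37 in S100A8 EtOH 1, 9.64 in S100A9 EtOH 1 and 7.75 in S100A9 EtOH 2, and in TAM 9.29 in S100A8 TAM 2 and 8.04, 8.92 and 6.22 for S100A9. The S100A9 TAM 3 call, 6.22, was at a separate intron site that also lies in the promoter window of PANO1. The main site was called in 3 EtOH and 3 TAM libraries. The 4 libraries without a call listed a peak between −log10 q 5.17 and 6.75, so the SLC25A22 values in the treatments overlap. SLC25A10 (dicarboxylates) and SLC25A12 (aspartate/glutamate, regulated by calcium) were called in 5 of 6 TAM and 0 of 5 EtOH libraries each. SLC25A1, the citrate carrier, was called in 3 TAM libraries and 1 EtOH library, and the summit of its strongest peak lay at -909 to -867 bp from the TSS. S100A9 TAM 3 called a further, weaker SLC25A1 site with its summit at 2 bp.

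Of the adenine nucleotide, phosphate and ATP-Mg carriers, 6 of 9 were called, with a median of 3.0 TAM libraries. SLC25A24, an ATP-Mg/phosphate carrier regulated by calcium, was called in 5 of 6 TAM and 0 of 5 EtOH libraries, at a fold enrichment of 7.59 to 10.6. SLC25A23, of the same kind, was called in 5 TAM and 2 EtOH libraries. The ADP/ATP carriers SLC25A4 and SLC25A5 were called in 4 and 1 TAM libraries. All 4 metal and glutathione carriers were called, with a median of 4.0 TAM libraries. Of the paralogs that import glutathione, SLC25A39 was called in 4 TAM libraries and SLC25A40 in 4 TAM and 2 EtOH libraries, the latter mainly at a site that is also in the promoter window of DBF4. SLC25A37, mitoferrin-1, was called in 2 TAM libraries. Of the uncoupling-protein-like and other members, 5 of 6 were called, with a median of 2.0 TAM libraries and 0 EtOH libraries. The members not yet described were called in 5 TAM libraries (SLC25A35), 5 TAM libraries and 1 EtOH library (SLC25A48), 4 TAM libraries (SLC25A25), 3 (SLC25A13 and SLC25A27), 2 (SLC25A11, SLC25A14, SLC25A30 and SLC25A53) or 1 (SLC25A21 and SLC25A46).

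The proteins were compared by exchanging the protein labels within each treatment. No gene passed adjustment, 0.13% of the genes (14 of 10794) had an unadjusted permutation p under 0.05 in either direction, and 0 of 36 members did. In TAM, 22.3 ± 2.08 members (SD, n = 3) were called for S100A8 and 28 ± 5.29 (SD, n = 3) for S100A9. Excluding S100A9 TAM 3, whose list is the longest, the S100A9 libraries called 26 and 24 members, beside 24, 23 and 20 for S100A8. The 7 members whose calls differed by at least 2 of 3 TAM libraries were all called more often for S100A9, 7 of 48 beside 6.93% of all genes, and 0 of 48 were called that much more often for S100A8, beside 2.02% of all genes. At the threshold the S100A9 TAM lists held 25494, 23994 and 40735 peaks and the S100A8 TAM lists 29381, 24117 and 21518. Only S100A9 TAM 3 was thus longer than every S100A8 TAM list. On average 41.8% of all promoters were called in the S100A9 TAM lists, beside 36.3% in the S100A8 TAM lists. The 7 members were SLC25A3, SLC25A4, SLC25A11, SLC25A14, SLC25A15, SLC25A22 and SLC25A39. SLC25A22 is among them only because its sites were pooled, as the S100A9 TAM 3 call was not at its main site. SLC25A4, an ADP/ATP carrier, had a fold enrichment of 6.81 in S100A8 TAM 1 and of 11.1, 8.11 and 7.75 for S100A9. SLC25A15 had 7.04 in S100A8 TAM 3 and 8.04, 7.2 and 8.99 for S100A9. SLC25A39 had 10.71 in S100A8 TAM 2, which lies inside the S100A9 values of 9.91, 13.1 and 10.2. SLC25A11, the oxoglutarate-malate carrier, had 6.48 in S100A9 TAM 1 and 6.68 in S100A9 TAM 3, and SLC25A14 had 8.92 in S100A9 TAM 2 and 5.29 in S100A9 TAM 3. These 5 members had 0 calls in EtOH.

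SLC25A3, the mitochondrial phosphate carrier, differed most. S100A9 TAM libraries had a fold enrichment of 8.62, 8.86 and 9.78, and the S100A8 TAM libraries listed only weaker peaks, of −log10 q 5.55, 3.74 and 4.61. In EtOH, S100A8 EtOH 2 called it at 8.91 and the other 4 libraries did not. The effect of TAM was larger for S100A9 than for S100A8 at an unadjusted exact permutation p = 0.04 (adjusted p = 1.0), as for 0.361% of all genes tested (39 genes), and SLC25A3 was the only member at that level.

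Summit positions were bounded by the promoter window, 1500 bp before to 250 bp after a TSS, and were measured to the nearest TSS. Both favour upstream positions and short distances, and the same shares over all genes were not computed. Over the 39 called members the median position of the summit was -52 bp from the TSS (quartiles -169 and -4.75 bp), 29 members (74.4%) had it upstream, and for 26 it was within 100 bp. Between libraries the summit of 1 member moved by a median of 162 bp. The strongest peak of SLC25A28 kept to -545 to -486 bp and that of SLC25A1 to -909 to -867 bp in each library that called them, farther out than most. Just below the threshold, the strongest uncalled promoter peak was one of SLC25A40 at −log10 q 6.95. At the upstream edge of the window the last summit inside was at -1486 bp (SLC25A10) and the first outside at -1786 bp (SLC25A39), and at the downstream edge they were at 249 bp (SLC25A13) and 259 bp (SLC25A26).

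**Figure D4:**
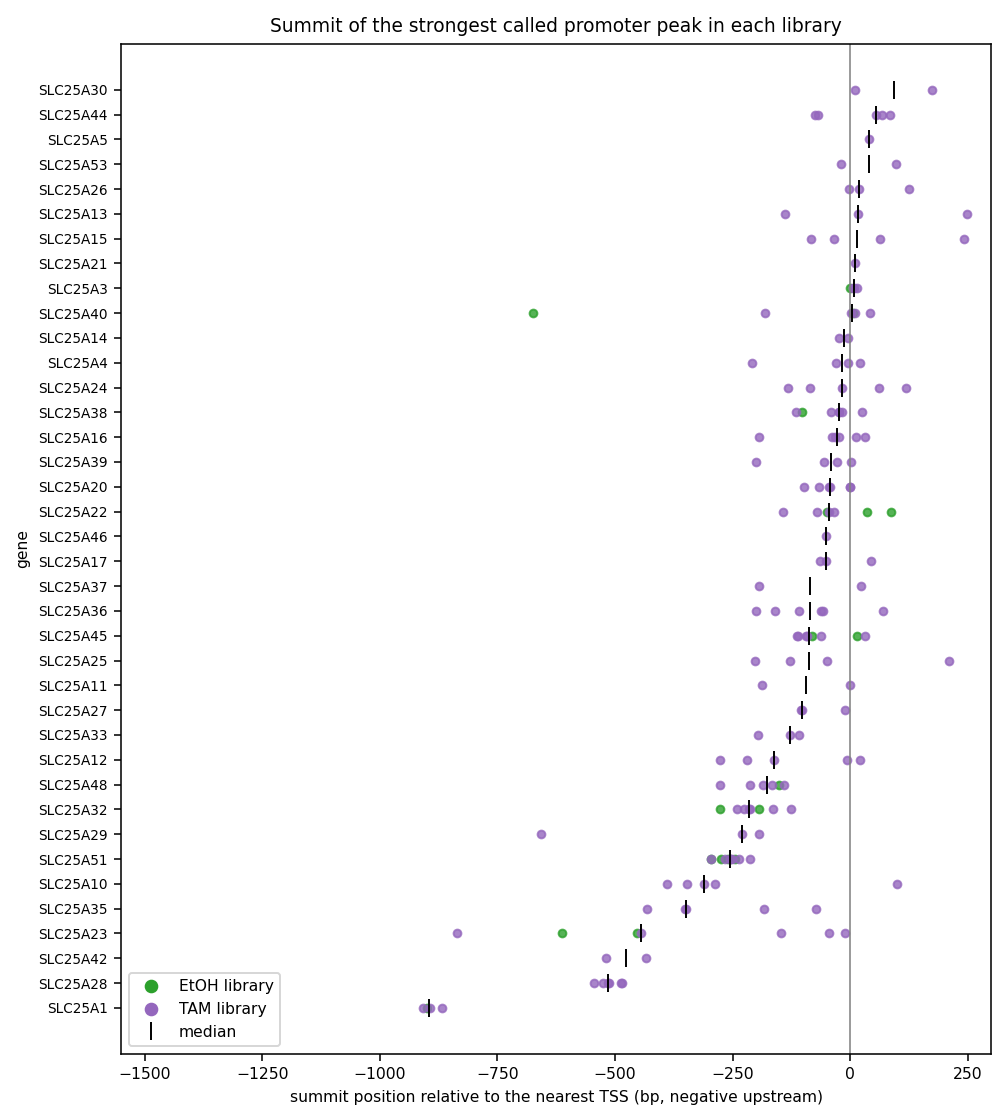
Position of the summit of the strongest called promoter peak relative to the nearest TSS (bp, negative upstream) for called SLC25A genes, with 1 point per library (green EtOH, purple TAM) and a black bar at the median. Most medians lie just upstream of the TSS, while SLC25A1 and SLC25A28 hold tight clusters farther upstream.

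In the 201 bp around the strongest summit of each called member, GC content had a median of 66.2%, beside 67.2% over the 12274 genes with a call. Both strands were searched for exact matches. The strongest summit is not always the centre of a sequence printed above, so the members counted here can differ. SLC25A36 is in none of the counts for the CCAAT box, the E-box or TGACGTCA, and SLC25A45 is not in that for TGANTCA. The member with TGACGTCA is SLC25A33, and those with TGANTCA are SLC25A28, SLC25A38 and SLC25A48. The CCAAT box (ATTGG) was in 13 of 39 member windows (33.3%, against 20.7% of all called genes), the ETS consensus CGGAAG in 7 (17.9%, against 27.6%) and the KLF/SP1 consensus CCCCGCCC in 7 (17.9%, against 24.3%). The E-box CACGTG was in 6 (15.4%, against 7.67%), TGANTCA in 3 (7.69%, against 6.53%), the YY1 consensus AAGATGGC in 2 (5.13%, against 4.13%), TGACGTCA in 1 (2.56%, against 2.45%) and the NRF1 consensus GCGCATGC in 0 (0%, against 3.61%). Over windows of 1751 bp around the 5′ end of the gene, CACGTG was in 37.5% of the 48 members and 24.6% of all genes, CGGAAG in 58.3% and 44.6%, and ATTGG in 89.6% and 87%. CCCCGCCC was in 43.8% and 40.9%, TGANTCA in 31.2% and 34.2%, AAGATGGC in 10.4% and 9.24%, GCGCATGC in 6.25% and 7.85%, and TGACGTCA in 6.25% and 3.54%. Such matches describe letters, and no test was made.

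Gene body peaks lay in fewer members than promoter peaks did, and SLC25A48 held the most. Of 48 members, 25 had a gene body call in at least 1 library (52.1%), against 55% of all genes. Per library, 4 and 2 member bodies were called in S100A8 EtOH, 1, 1 and 1 in S100A9 EtOH, 14, 6 and 8 in S100A8 TAM, and 7, 11 and 14 in S100A9 TAM. In TAM this is 20.8% ± 7.34 (SD, n = 6) of members beside 30.4% ± 5.02 of all genes, at a median gene length of 25047 bp for members and 27256 bp for all genes. At an unadjusted permutation p under 0.05, 25.9% of the 8491 genes tested had more gene body calls in TAM, and 3 of 15 members tested did, SLC25A23, SLC25A37 and SLC25A48, none after adjustment (adjusted p = 0.154 each).

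SLC25A48, a choline carrier whose record spans 412857 bp, had 8, 7 and 4 in S100A8 TAM and 6, 8 and 14 in S100A9 TAM, and in EtOH 1 in S100A8 EtOH 1 and 0 in the other libraries. The most frequent site, chr5:134986850-134987238 in an intron, was called in 6 of 6 TAM and 0 of 5 EtOH libraries, with a fold enrichment of up to 20.03. Its promoter site also lies in the window of CXCL14, a chemokine gene within the record, so the peaks of this locus cannot be given to SLC25A48 alone. SLC25A37 had 1, 2 and 3 gene body peaks in S100A8 TAM, 1, 2 and 5 in S100A9 TAM and 1 in EtOH in all. SLC25A21, the oxodicarboxylate carrier, had 16 in TAM and 3 in EtOH, the most frequent of them in 3 EtOH and 3 TAM libraries at 364 bp downstream of the TSS, just past the promoter window. SLC25A18, another glutamate carrier with 0 promoter peaks, had 8 in TAM and 2 in EtOH, and its site chr22:18056460-18056950 was called in 5 of 6 TAM libraries and 1 EtOH library. SLC25A12 had 5 in TAM and 1 in EtOH, all but 1 of them at a site that also lies in the promoter window of HAT1. SLC25A23 had 5 in TAM and 0 in EtOH, at sites that also lie in the promoter window of CRB3.

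**Figure D5:**
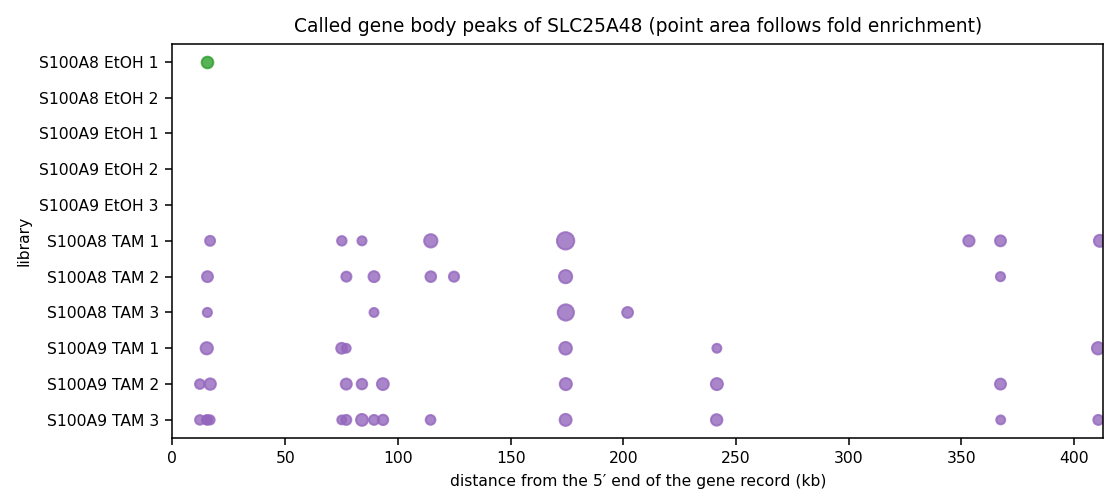
Called gene body peaks of SLC25A48 in each library by distance from the 5′ end of the gene record (kb), with point area following fold enrichment (green EtOH, purple TAM). The site with peaks in all 6 TAM libraries lies near the middle of the record, and the EtOH libraries hold 1 peak in all.

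The other genes of mitochondrial transport and carrier import were called in at least 1 library in 22 of 27 cases (81.5%, against 61.1% of all genes). The uncoupling proteins UCP1, UCP2 and UCP3, the testis pyruvate carrier subunit MPC1L and the import chaperone TIMM8A had 0 calls. MPC1, a subunit of the pyruvate carrier, was called in 6 of 6 TAM and 0 of 5 EtOH libraries, and its partner MPC2 in 6 of 6 TAM and 4 of 5 EtOH libraries. Of the 22 tested, 4 had an unadjusted permutation p under 0.05 with more calls in TAM, near the 21% of all genes tested: MPC1 and the small import proteins TIMM10, TIMM13 and TIMM22. The outer membrane channels VDAC1, VDAC2 and VDAC3 were called in 3, 4 and 2 TAM libraries and in 2, 0 and 1 EtOH libraries.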

How the data were processed

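ChIP-seq with an antibody to Flag was made by the authors after crosslinking of protein to protein and then to DNA. Per the labels and the study's methods, reads were aligned to hg19 with Bowtie2, uniquely mapped reads were kept, and MACS2 called peaks for each library against its input (versions not given in the sources used here). The deposited lists give, for each peak, a fold enrichment ratio over input (a linear ratio) and −log10 of the q-value, and they reach down to q = 0.05. Depth is unknown, as the deposited files hold no read counts, so no interval that needs it is given. RNA polymerase II and input samples were not analysed here.

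From these lists, peaks with −log10 q of at least 7 were assigned by summit to all TSSs of protein-coding transcripts in GENCODE version 44 (lifted to hg19), with windows of 1500 bp upstream and 250 bp downstream. Calls were tested for each gene, over all genes called in at least 2 libraries, by an exact permutation test over the libraries (Benjamini-Hochberg adjustment; Python 3.11.15, numpy 2.4.6, pandas 2.3.3). The script was tested on simulated data. Differential binding on reads could not be fitted to peak lists. Named members were SLC25A51, those called in at least 3 of 5 EtOH libraries, up to 5 called in 6 of 6 TAM and 0 EtOH libraries, those differing between proteins by at least 2 of 3 TAM libraries, and the 5 with most gene body peaks; the rest are given by group. A member and a marker are counted in totals but not reported here. The members, lists and motifs were chosen with earlier results of these data known. Alternatives were the q threshold, equal numbers of peaks, the TSS set, the window, overlap in place of summit, each library left out, the replicate number as a block, the filter, and other measures.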

Additional observations from a re-analysis of the deposited data

How the results depend on the processing

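No gene passed adjustment for TAM against EtOH at promoters or in gene bodies, or for S100A9 against S100A8, under any alternative run except 1: with the highest −log10 q as the measure, 4373 promoters passed. The count of members with an unadjusted p under 0.05 for promoters (11) was 5 with every peak as deposited, 4 at −log10 q of at least 10, 0 with equal numbers of top peaks, 7 with only the 5′ end as TSS, 20 with the highest −log10 q, 1 by rank (chosen after seeing the data, and lower in TAM), and 4 to 6 when 1 library was left out, where fewer arrangements remain. For gene bodies (3) it was 1 at −log10 q of at least 10, 1 with equal numbers, 5 with only the 5′ end, 6 with promoter windows included, and 0 to 1 without 1 library. With the replicate block both were 0, since the smallest p it allows is 0.0625. Over all genes tested the promoter share (21%) was 9.89% with every peak, 17.9% at −log10 q of at least 10 and 1.07% with equal numbers. It was 18.5% with only the 5′ end, 57.1% with the highest −log10 q and 5.9 to 7.8% without 1 library. The gene body share (25.9%) was 24.1% at −log10 q of at least 10, 1.27% with equal numbers, 25.8% with only the 5′ end and 8.57 to 11.4% without 1 library. Same-numbered libraries did not deviate together (correlations -0.0164 to 0.0188 over 5 pairs), so the numbers were not used as pairs.

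The mean number of member promoters in TAM libraries minus that in EtOH libraries (21.2) was 16.3 with every peak, 13 at −log10 q of at least 10, 1.03 with equal numbers and 15.3 with only the 5′ end. For gene bodies (8.2) it was 11.7 with every peak, 0 with equal numbers and 12.5 with only the 5′ end. The excess of members over all genes in TAM, 13.4 percentage points at promoters, was 4.18 at −log10 q of at least 10, 3.37 with equal numbers and 8.32 with only the 5′ end; the deficit in gene bodies, -9.55, was -4.29 with every peak and -0.709 with equal numbers. The E-box share (15.4%) was 23.1% with equal numbers. With every peak as deposited, the share of libraries called, TAM minus EtOH, fell from 1.0 to 0 for SLC25A16 and to 0.167 for SLC25A36. It fell from 1.0 to 0.333 for SLC25A20 and to 0.417 for SLC25A28. With equal numbers it was 0.5 for SLC25A28, and SLC25A16, SLC25A20 and SLC25A36 were called in too few libraries to be tested. With equal numbers this difference turned to -0.333 for SLC25A22, -0.167 for SLC25A45 and -0.583 for the SLC25A21 gene body. SLC25A38 turned to -0.0833 with only the 5′ end, and SLC25A22 ranged from -0.167 to 0.333 without 1 library, below 0 without S100A8 EtOH 2 (-0.167), S100A9 EtOH 3 or S100A8 TAM 2 (-0.0833 each). The cause was not tested.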
